A study of Mus musculus with 6 samples.

Results

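Complex III, complex IV and the ATP synthase are the last 3 enzymes of mitochondrial oxidative phosphorylation, and their subunits encoded in the nucleus are described here in mouse quadriceps after deletion of Dnm1l in adult muscle. The genes were taken by symbol: those that begin with Uqcr, with Cox and a digit from 4 to 8, or with Atp5, together with Cyc1 and Cycs. Atp5s, Atp5sl and symbols with -ps, which mark pseudogenes, were left out, and this removed 3 symbols present in the count tables. The choice gave 43 of 27179 genes: 9 in complex III, 18 in complex IV, 15 in the ATP synthase, and Cycs, the carrier between complexes III and IV. Of these, 39 passed the filter on low counts and were tested among 16483 genes.

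RNA-seq libraries came from 3 control quadriceps (labelled Control f/f, replicates B, C, D) and 3 miDrp1KO quadriceps (replicates A, E, F) of mice on a normal chow diet, taken 3 weeks after deletion. The mice carried a floxed Drp1 allele on a C57BL/6J background, and miDrp1KO mice also carried HSA-MerCreMer, a tamoxifen-activated Cre recombinase driven by the human skeletal actin (ACTA1) promoter, so that recombination is limited to skeletal muscle fibres. Both groups received tamoxifen by intraperitoneal injection at 3 months old, and male mice were studied after 6 hours of fasting. The study's methods describe its controls as flox/+ or flox/flox. Drp1, the product of Dnm1l, is the GTPase that divides mitochondria. The study describes the comparison as 3 mice against 3 mice. Its libraries were sequenced in 2 pools, and which library was in which pool is not given in the sources used here, so the part of the pool in the values was not tested.

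Complex III (cytochrome bc1) passes electrons from ubiquinol to cytochrome c and pumps protons. Complex IV (cytochrome c oxidase) hands these electrons to oxygen, and the ATP synthase lets the protons flow back through a turning ring of c subunits to make ATP. The catalytic cores of complexes III and IV hold proteins made from mitochondrial DNA, while most of their other subunits are made from nuclear genes and imported. Skeletal muscle and heart use their own versions of several complex IV subunits.

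Levels are given as CPM, a gene's counts relative to the library total as scaled by edgeR's TMM method. Values by library are given in the order B, C, D for control and A, E, F for miDrp1KO libraries. Dnm1l measured 156, 114 and 140 CPM in control and 70.6, 81.3 and 66.2 CPM in miDrp1KO libraries. The groups did not overlap, and the log2 fold change was -0.91 (SE 0.18, unadjusted p = 0.000389, adjusted p = 0.362, edgeR's quasi-likelihood test). The quadriceps holds other cells than fibres, and fewer cells of a type and less RNA per cell cannot be told apart in these libraries. Control libraries held 13989588 to 62042255 counts and miDrp1KO libraries 20028624 to 28829756. The members took 0.885% to 0.999% of control counts and 0.798% to 1.49% of miDrp1KO counts. The 8 muscle fibre markers summed to 237000 to 298000 CPM in control and 99600 to 223000 CPM in miDrp1KO libraries. Their log2 fold changes ran from -1.29 to 0.67 (median -0.55), with 7 below 0 and 1 lower at an unadjusted p under 0.05 by edgeR. In 3 of them every miDrp1KO library lay below every control library. Of all genes tested, 6.22% were lower at this level and 10.3% lay below in this way. Ribosomal RNA genes took 3.36% to 15.6% of control counts and 1.47% to 24.4% of miDrp1KO counts.

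The subunit genes leaned towards higher levels in miDrp1KO muscle, with no member past the adjusted threshold. The median log2 fold change was 0.28 over the 39 tested members, against 0.02 over all genes tested, and 32 of the 39 had a value above 0. No member had an adjusted p under 0.05 by edgeR, where 2 of 16483 genes did (0.0121%), and the lowest adjusted p among members was 0.362. At an unadjusted p under 0.05, 8 members were higher and 0 were lower, whereas 4.68% of all genes tested were higher and 6.22% were lower. Limma voom also called 0 members, and DESeq2, which called 55 of the 7852 genes it gave an adjusted p (0.7%), called 2, Atp5j2 (log2 fold change 0.88, adjusted p = 0.0437) and Cox7b (0.78, adjusted p = 0.0443). In 10 members every miDrp1KO library lay above every control library, and in 0 members below, against 7.67% and 10.3% of all genes tested.

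**Figure D1:**
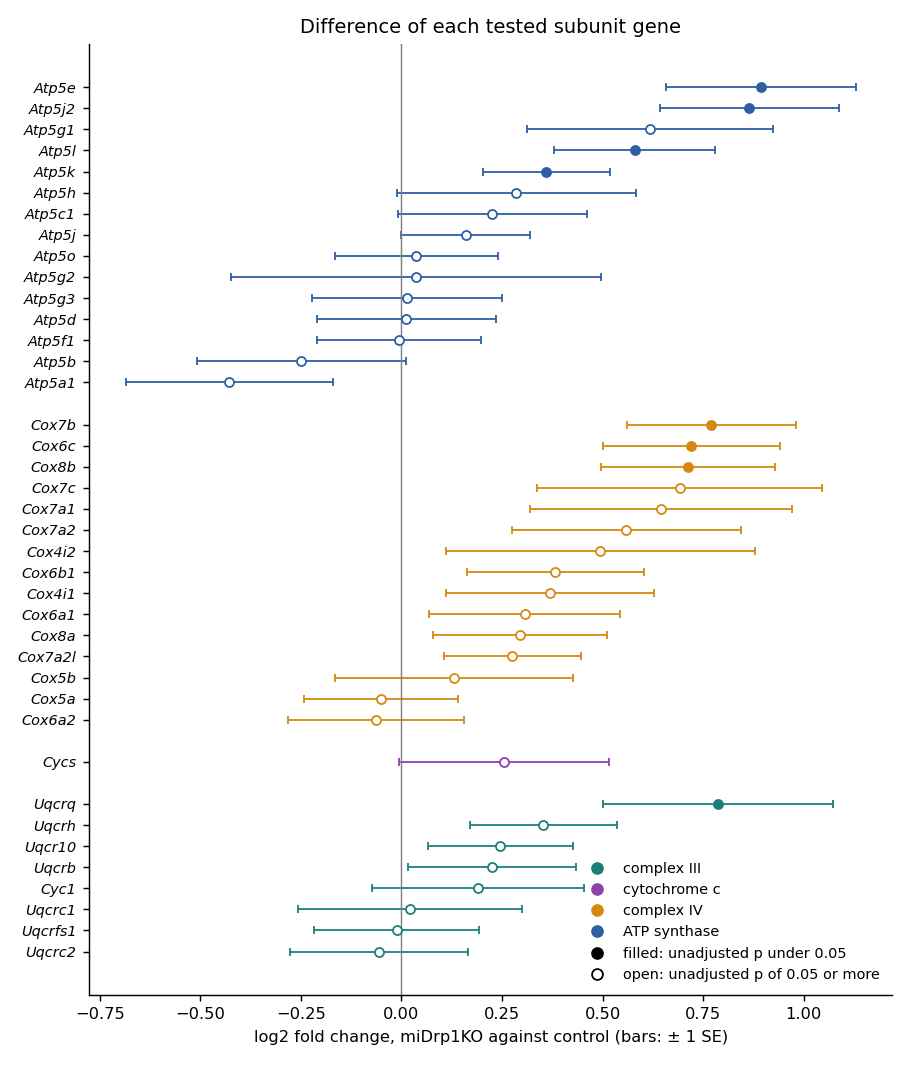
Log2 fold change of the 39 tested subunit genes, miDrp1KO against control, by complex (colour), with bars of 1 SE from edgeR and filled points where the unadjusted p was under 0.05. The 8 filled points all lie above 0, from Atp5k at 0.36 to Atp5e at 0.89, and the lowest value is that of Atp5a1 at -0.43.

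By complex, the median log2 fold change was 0.21 over the 8 tested members of complex III (range -0.06 to 0.79), 0.38 over the 15 of complex IV (-0.06 to 0.77) and 0.16 over the 15 of the ATP synthase (-0.43 to 0.89). Without library F the medians were 0.02, 0.20 and 0.02 in the same order. The median of complex III was 0.12 without C, that of complex IV 0.58 without A, and that of the ATP synthase 0.25 without B. When the slow fibre score entered the fit they were 0.03, 0.20 and 0.08, and when it was corrected for transcript length and GC content they were -0.08, 0.16 and -0.01. Members higher at an unadjusted p under 0.05 numbered 1, 3 and 4. These counts turned on single libraries. In complex III the count was 2 without A and 0 without C, without D or without F. In complex IV it was 8 without A, 5 without C and 5 without E, and in the ATP synthase it was 2 without D. The share of all genes higher at this level moved too, from 4.68% to 8.55% without A, 5.02% without C, 3.21% without D, 3.27% without E and 3.6% without F. Whether the complexes differed from each other was not tested.

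Relative to the control mean on a log2 scale, the median member of complex IV stood at 0.191, -0.179 and -0.048 in B, C and D and at -0.025, 0.232 and 0.722 in A, E and F. For complex III the values were 0.205, -0.171 and -0.051 in control and -0.118, 0.135 and 0.429 in miDrp1KO libraries, and for the ATP synthase 0.082, 0.014 and -0.057, and -0.083, 0.12 and 0.427. On this scale, library F was the highest of the 6 in every complex, A lay within or below the control range, and E lay above every control for complex IV and the ATP synthase but below B for complex III. The TMM factors behind it were 0.84, 0.982 and 0.969 in B, C and D and 0.846, 1.42 and 1.04 in A, E and F. As a share of raw counts, the members were higher in E (1.49%) than in F (1.37%).

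Promoter windows are shown for 4 of the members with low p-values (unadjusted), all with groups that did not overlap, so that the sequence upstream of them can be compared. Each is 150 bases, ending 1 base before the annotated start of transcription, read 5′ to 3′ on the gene's strand from RefSeq (GRCm38.p6). Capitals mark matches, on either strand, to any of 4 short motifs: GCATGCGC (core bound by NRF1), CCGGAAGT (ETS family, including GABPA), AAGGTCA (oestrogen-related receptors) and AAGATGG (YY1), regulators known for binding near respiratory chain genes. The windows lie at chr5:108434400-108434549 (minus strand) for Atp5k, chr9:44920743-44920892 (minus strand) for Atp5l, chrX:106015550-106015699 (plus strand) for Cox7b and chr7:140900447-140900596 (minus strand) for Cox8b.
Atp5k: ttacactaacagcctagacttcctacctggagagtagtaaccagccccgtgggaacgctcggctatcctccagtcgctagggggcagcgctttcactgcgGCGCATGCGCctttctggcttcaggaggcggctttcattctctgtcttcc
Atp5l: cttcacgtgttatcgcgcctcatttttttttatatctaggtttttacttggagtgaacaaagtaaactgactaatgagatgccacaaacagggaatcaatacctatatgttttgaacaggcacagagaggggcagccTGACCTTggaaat
Cox7b: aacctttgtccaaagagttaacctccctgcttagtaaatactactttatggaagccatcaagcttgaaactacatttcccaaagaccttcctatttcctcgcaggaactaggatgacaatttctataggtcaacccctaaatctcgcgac
Cox8b: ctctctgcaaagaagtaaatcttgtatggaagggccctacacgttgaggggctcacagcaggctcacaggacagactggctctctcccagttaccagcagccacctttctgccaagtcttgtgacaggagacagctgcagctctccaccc

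In Atp5k, 2 overlapping matches to the NRF1 core begin 50 and 48 bases before the start. They are a single stretch that reads the same on both strands, matched on either strand. In Atp5l, a match to the AAGGTCA motif on the opposite strand begins 13 bases before the start, and neither Cox7b nor Cox8b holds any of the 4 motifs in the stretch shown. Atp5j2 and Atp5e, which had lower unadjusted p-values than the 4 members shown, were left out of the display. Their only matches lie on the transcribed side of the start, so a stretch of this kind would hold none. Over the full windows (250 bases before to 50 after the start), which the reference gives for 33 of the 43 members, the NRF1 core was found in 21.2% of members (7: Atp5g2, Atp5k, Atp5l, Cox6a1, Cycs, Uqcr11 and Uqcrc1) and in 3.05% of all 27025 genes with a window. The ETS motif was found in 12.1% of members (Atp5h, Cox8a, Uqcr11 and Uqcrh) and 4.31% of all genes. AAGGTCA was found in 12.1% (Atp5e, Atp5g3, Atp5k and Atp5l) and 5.38%, and AAGATGG in 12.1% (Atp5f1, Atp5j, Atp5j2 and Cox7c) and 7.28%. A match says only that these letters are present. For each of the 4 motifs, matches lie on the transcribed side of the start in some members (Uqcrc1 for the NRF1 core, Cox8a for the ETS motif, Atp5e and Atp5k for AAGGTCA, and Atp5j2 for AAGATGG).

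In complex III, the log2 fold changes of the tested members ran from -0.06 for Uqcrc2 to 0.79 for Uqcrq. Uqcrq, a small subunit beside cytochrome b (chr11:53427922-53430831), measured 71.2, 56.3 and 60.5 CPM in control and 67.3, 96.8 and 160 CPM in miDrp1KO libraries. Library F was highest, while A lay within the control range. The log2 fold change was 0.79 (SE 0.28, unadjusted p = 0.021, adjusted p = 0.393, edgeR), the only member of complex III with an unadjusted p under 0.05. Without library F it was 0.41 (unadjusted p = 0.065, edgeR), and its unadjusted p was 0.0595 without C and 0.0516 without D.

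Uqcrh, the acidic hinge protein that docks cytochrome c to cytochrome c1, measured 283, 252 and 243 CPM in control and 302, 356 and 334 CPM in miDrp1KO libraries. Every miDrp1KO library lay above every control library, with a log2 fold change of 0.35 (SE 0.18, unadjusted p = 0.0796, edgeR). Uqcr10, the smallest tested subunit by coding length in this complex, measured 89.7, 81.3 and 75.4 CPM in controls and 81.7, 95.5 and 115 CPM in miDrp1KO libraries. Its groups overlapped through B, with a log2 fold change of 0.25 (SE 0.18, unadjusted p = 0.198, edgeR).

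Uqcrb, a ubiquinone-binding subunit, was the most abundant member of complex III per transcript length, at a mean of 1120 CPM per kilobase in control and 1310 in miDrp1KO libraries. It measured 569, 658 and 575 CPM in control and 813, 693 and 601 CPM in miDrp1KO libraries. Here library A was the highest and F lay within the control range, the reverse of their order in Uqcrq, and the log2 fold change was 0.23 (SE 0.21). Other annotated genes share 43.4% of its 50-base stretches, so its counts are uncertain.

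The larger subunits of complex III had log2 fold changes of 0.19 (SE 0.26) for Cyc1, the haem-bearing cytochrome c1, -0.01 (SE 0.20) for Uqcrfs1, the Rieske iron-sulfur protein, 0.02 (SE 0.28) for Uqcrc1 and -0.06 (SE 0.22) for Uqcrc2, the core proteins. The groups overlapped in all 4. Uqcr11, the remaining small subunit, was listed at 0 counts in all 6 libraries and was not tested.

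Cycs encodes cytochrome c, the mobile electron carrier. It measured 172, 259 and 153 CPM in control and 304, 172 and 221 CPM in miDrp1KO libraries. The highest library of each group (C and A) stood apart from the rest of its own group, and the groups overlapped, with a log2 fold change of 0.25 (SE 0.26, unadjusted p = 0.35, edgeR). It was 0.04 without A, 0.13 without D, 0.43 without E and 0.50 without C. Other genes share 28.5% of its 50-base stretches, which leaves its counts uncertain.

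In complex IV, 13 of the 15 tested members had a log2 fold change above 0. The 3 with the lowest p-values are accessory subunits around the catalytic core. Cox7b (chrX:106015700-106022450) measured 177, 194 and 169 CPM in control and 230, 332 and 359 CPM in miDrp1KO libraries. The groups did not overlap, and the mean was 180 ± 12.8 CPM in control and 307 ± 68.1 CPM in miDrp1KO libraries (SD, n = 3 each), a ratio of 1.71, with a log2 fold change of 0.77 (SE 0.21, unadjusted p = 0.00358, adjusted p = 0.362, edgeR).

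Cox8b, the heart and skeletal muscle form of subunit VIII (chr7:140898942-140900446), measured 162, 197 and 153 CPM in control and 218, 273 and 348 CPM in miDrp1KO libraries. Its log2 fold change was 0.71 (SE 0.22, unadjusted p = 0.00692, adjusted p = 0.379, edgeR). Cox6c (chr15:35931976-35938246) measured 365, 274 and 320 CPM in controls and 412, 570 and 597 CPM in miDrp1KO libraries, a log2 fold change of 0.72 (SE 0.22, unadjusted p = 0.00726, adjusted p = 0.379, edgeR). In both genes every miDrp1KO library lay above every control library, with A nearest to the controls. The gene Cox6c2 shares 21.1% of the 50-base stretches of Cox6c. Two-sided exact permutation tests over the libraries gave p = 0.1 for Cox7b, Cox8b and Cox6c, the smallest value that 3 against 3 allows.

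Among the remaining members of complex IV, Cox7a2l had groups that did not overlap (58.4 to 67.1 CPM in control and 69.6 to 90.3 CPM in miDrp1KO libraries), with a log2 fold change of 0.28 (SE 0.17). Cox7c reached 0.69 (SE 0.35), Cox6b1 0.38 (SE 0.22) and Cox5b 0.13 (SE 0.30), while Cox5a was at -0.05 (SE 0.19). The groups overlapped in these 4. Cox7c showed the same uneven controls as Cycs, at 32.8, 58.7 and 29.1 CPM in control and 72.3, 39.3 and 82.8 CPM in miDrp1KO libraries. Other annotated genes share 53% of its 50-base stretches, 32% of those of Cox5a and 25.9% of those of Cox5b.

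**Figure D2:**
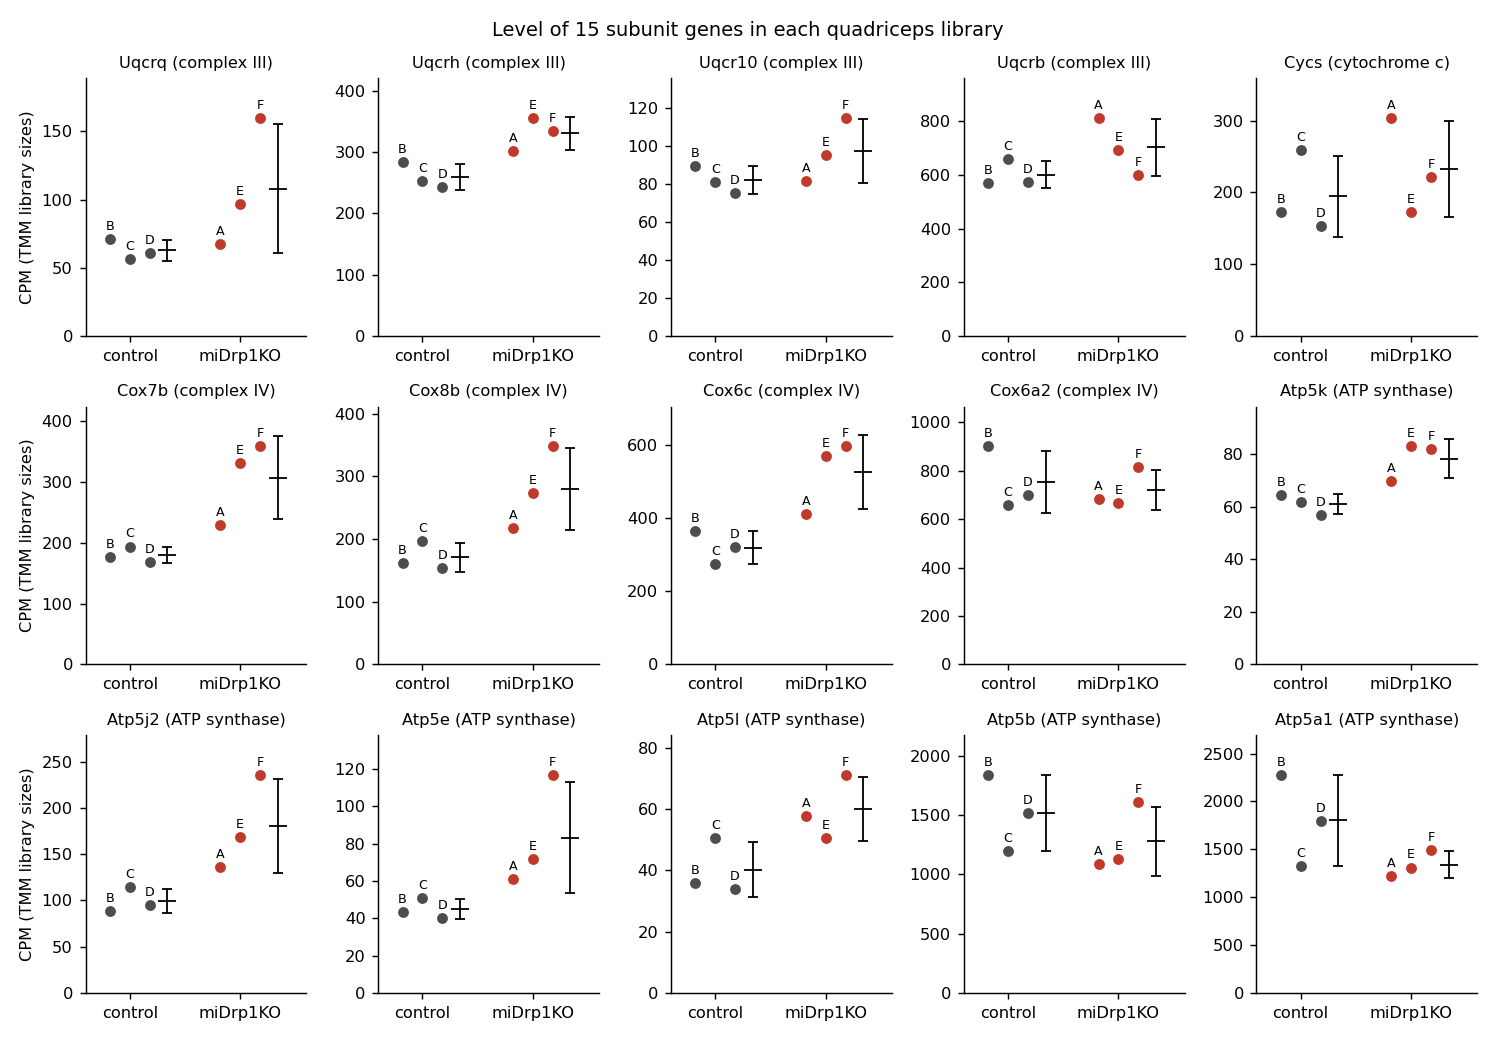
CPM of 15 subunit genes in control (B, C, D) and miDrp1KO (A, E, F) libraries; each point is 1 library and the bar beside each group is the mean ± SD (n = 3). Cox7b, Cox8b, Cox6c, Atp5j2 and Atp5e separate the groups with A the lowest of the miDrp1KO libraries, whereas Cycs and Uqcrb are highest in A and Atp5a1 is highest in control library B.

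Several complex IV subunits have a heart and skeletal muscle form or a form of restricted tissues beside the widely used form, and the 4 pairs with both members tested were compared within each library. Per kilobase of transcript, the muscle forms prevailed in control libraries: Cox6a2 over Cox6a1 by 53 to 64.5 times, Cox7a1 over Cox7a2 by 20.5 to 60.8 times and Cox8b over Cox8a by 13.4 to 19 times. Cox4i2, known from lung and from cells at low oxygen, stood at 0.00226 to 0.0043 of Cox4i1.

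Cox6a2 was the most abundant member of complex IV per transcript length in control libraries, at a mean of 1110 CPM per kilobase, and stood at 1060 in miDrp1KO libraries, where Cox7a1 was at 1460 (931 in control). It measured 902, 660 and 701 CPM in control and 683, 667 and 817 CPM in miDrp1KO libraries, with overlapping groups and a log2 fold change of -0.06 (SE 0.22). Its counterpart Cox6a1 measured 11.9, 8.6 and 11.1 CPM in controls and 8.94, 13.2 and 17.1 CPM in miDrp1KO libraries, a log2 fold change of 0.31 (SE 0.24). The log2 ratio of Cox6a2 to Cox6a1 was 6.24, 6.26 and 5.98 in control and 6.26, 5.66 and 5.58 in miDrp1KO libraries. Libraries E and F lay below every control and A was level with the highest of them, with a difference of -0.33 (p = 0.3, two-sided exact permutation test), -0.54 without A and -0.20 without F.

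For subunit VIII, Cox8a measured 18.5, 15.8 and 15.3 CPM in control and 14.9, 18.7 and 27.3 CPM in miDrp1KO libraries (log2 fold change 0.29, SE 0.22). The log2 ratio of Cox8b to Cox8a was 3.13, 3.64 and 3.32 in controls and 3.87, 3.87 and 3.67 in miDrp1KO libraries. This was the only one of the 7 ratios compared in which the groups did not overlap, with a difference of 0.44 (p = 0.1, the smallest that the exact permutation test allows, and 0.7 after Benjamini-Hochberg adjustment over the 7).

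For subunit VIIa, the muscle form Cox7a1 measured 440, 273 and 385 CPM in control and 334, 540 and 845 CPM in miDrp1KO libraries (log2 fold change 0.65, SE 0.33, and 0.28 without F). The widely used form Cox7a2 measured 12.1, 22.3 and 11.6 CPM in controls and 28.6, 17 and 21.9 CPM in miDrp1KO libraries (0.56, SE 0.28). Both had overlapping groups. The log2 ratio of Cox7a1 to Cox7a2 separated C (3.61) and A (3.55) from B, D, E and F (4.99 to 5.27), across the genotypes, and the groups differed by -0.01 (p = 1, exact permutation test). The 9 slow fibre markers, genes of slow-twitch contractile proteins, were low in C, A and D, at 74.3, 100 and 109 CPM in sum, and higher in B, E and F, at 484, 799 and 717 CPM. Their part in the ratio was not tested.

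For subunit IV, Cox4i1 measured 352, 264 and 290 CPM in control and 287, 334 and 551 CPM in miDrp1KO libraries (log2 fold change 0.37, SE 0.26, with 0.06 without F and 0.58 without A), and Cox4i2 measured 1.09, 0.583 and 1.22 CPM in controls and 1.12, 1.59 and 1.49 CPM in miDrp1KO libraries (0.49, SE 0.38). The groups overlapped in both genes and in their log2 ratio, which differed by 0.27 (p = 0.6, exact permutation test), with 0.04 without C, 0.08 without E and 0.50 without D or without F. The 3 members known from testis fell below the filter on low counts: Cox6b2 with 22 counts over the 6 libraries, Cox7b2 with 11 and Cox8c with 11. The form paired with Cox6b2, Cox6b1, measured 268, 228 and 232 CPM in controls and 238, 312 and 400 CPM in miDrp1KO libraries.

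**Figure D3:**
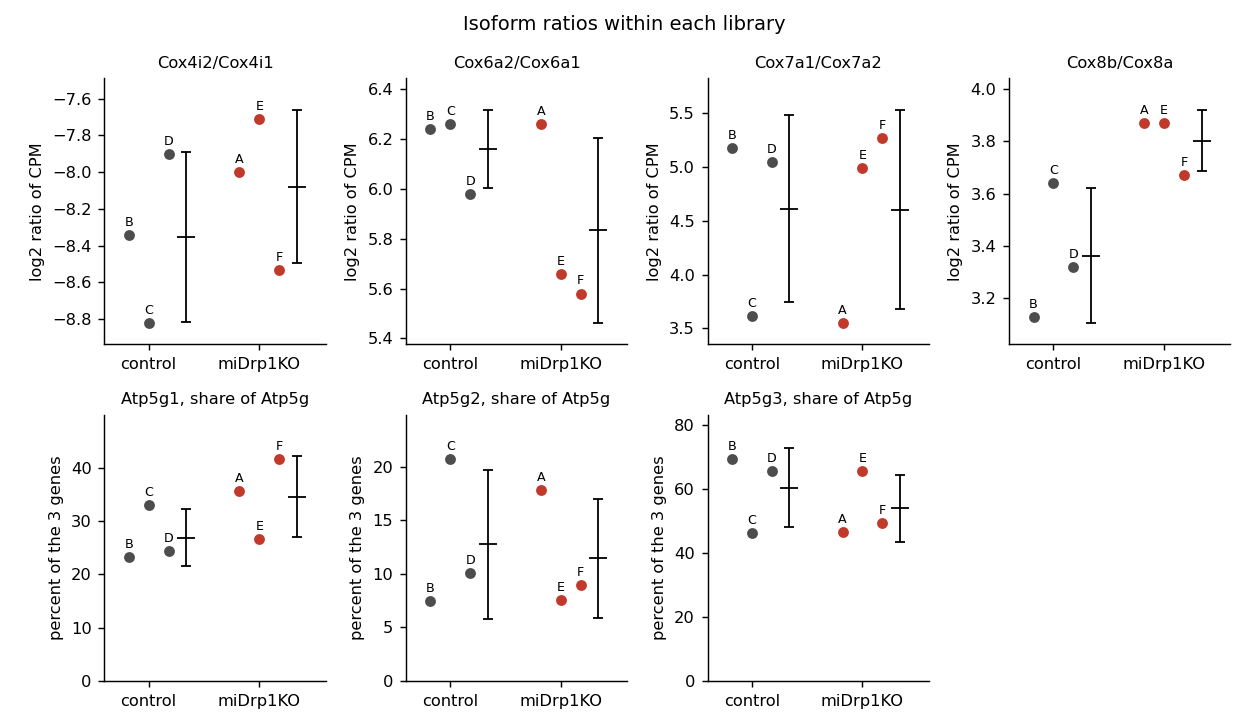
Log2 ratio of CPM for 4 complex IV isoform pairs and the share of each Atp5g gene in their sum, in control (B, C, D) and miDrp1KO (A, E, F) libraries, 1 point per library with the mean ± SD of each group (n = 3) beside it; the upper axes do not start at 0. The groups do not overlap for Cox8b/Cox8a, while C and A stand together below the other 4 libraries for Cox7a1/Cox7a2.

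In the ATP synthase, the small membrane subunits e, f and g had log2 fold changes of 0.36 to 0.86, each with an unadjusted p under 0.05, while those of the catalytic alpha and beta subunits lay below 0. Atp5j2, the f subunit (chr5:145183704-145191541), measured 88.8, 114 and 94.9 CPM in control and 136, 169 and 236 CPM in miDrp1KO libraries. The groups did not overlap, and the log2 fold change was 0.86 (SE 0.22, unadjusted p = 0.0025, adjusted p = 0.362, edgeR), with the lowest unadjusted p of all 39 members. Atp5l, the g subunit, measured 35.9, 50.4 and 34 CPM in controls and 57.8, 50.6 and 71.2 CPM in miDrp1KO libraries, so that E lay just above C. Its log2 fold change was 0.58 (SE 0.20, unadjusted p = 0.0142, adjusted p = 0.392, edgeR), and 14 other genes, among them pseudogenes, share 84.8% of its 50-base stretches. Atp5k, the e subunit, which with g holds ATP synthase dimers together, measured 64.5, 61.6 and 57 CPM in controls and 69.9, 83 and 82 CPM in miDrp1KO libraries, with a log2 fold change of 0.36 (SE 0.16, unadjusted p = 0.0438, adjusted p = 0.446, edgeR). Atp5k kept an unadjusted p under 0.05 in 2 of the 6 fits that left out a library and was at -0.01 in the fit corrected for length and GC content.

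In the catalytic head, Atp5e, the epsilon subunit of the central stalk (chr2:174461075-174464101), had the highest log2 fold change of all members in the edgeR fit of all libraries. It measured 43.2, 50.7 and 40.3 CPM in control and 61, 71.8 and 117 CPM in miDrp1KO libraries, a log2 fold change of 0.89 (SE 0.24, unadjusted p = 0.00299, adjusted p = 0.362, edgeR), and the groups did not overlap. Its log2 fold change was 0.592 without F, below Cox7b (0.664), Atp5j2 (0.645), Cox6c (0.641) and Cox7a2 (0.595). Once the slow fibre score entered the fit it was 0.765, below Cox7c (0.901), Cox7a2 (0.823) and Atp5j2 (0.774). Atp5a1 and Atp5b, the alpha and beta subunits that form the catalytic sites, had the lowest values among the members. Atp5a1 measured 2280, 1330 and 1800 CPM in controls and 1220, 1310 and 1490 CPM in miDrp1KO libraries, and Atp5b 1840, 1200 and 1520 CPM and 1090, 1130 and 1610 CPM. Control library B was the highest in both, the groups overlapped, and the log2 fold changes were -0.43 (SE 0.26, unadjusted p = 0.125) and -0.25 (SE 0.26, unadjusted p = 0.358) by edgeR. Without B they were -0.20 and -0.07. Atp5a1 reached -0.63 without C (unadjusted p = 0.0486) and -0.56 once the slow fibre score entered the fit (unadjusted p = 0.0269), and Atp5b -0.43 without F, by edgeR. Atp5b was the most abundant ATP synthase gene per transcript length, at 794 CPM per kilobase in control and 668 in miDrp1KO libraries. The gamma subunit Atp5c1 was at 0.23 (SE 0.23) and the delta subunit Atp5d at 0.01 (SE 0.22).

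The peripheral stalk, which holds the head still against the membrane part, had log2 fold changes between -0.01 and 0.29: 0.29 (SE 0.30) for Atp5h (subunit d), 0.16 (SE 0.16) for Atp5j (coupling factor 6), 0.04 (SE 0.20) for Atp5o (OSCP) and -0.01 (SE 0.20) for Atp5f1 (subunit b). Of these, Atp5j had groups that did not overlap, at 98.8 to 112 CPM in control and 112 to 122 CPM in miDrp1KO libraries, with A only just above C. Other genes share 50.5% of the 50-base stretches of Atp5h, 38.7% of those of Atp5f1 and 34% of those of Atp5o.

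The c ring is built from 1 mature protein made by 3 genes. Atp5g1 measured 43.8, 53.9 and 37 CPM in control and 59.3, 43.8 and 104 CPM in miDrp1KO libraries (log2 fold change 0.62, SE 0.30, unadjusted p = 0.0743, edgeR, and 0.22 without F). Atp5g2 measured 14.1, 33.7 and 15.3 CPM and 29.6, 12.5 and 22.3 CPM (0.04, SE 0.46), and Atp5g3 131, 75.6 and 99.7 CPM and 77.5, 108 and 123 CPM (0.01, SE 0.24). As a share of the 3, Atp5g1 held 23.27%, 33.02% and 24.33% in controls and 35.65%, 26.64% and 41.6% in miDrp1KO libraries, a difference of 7.75 percentage points with overlapping groups (p = 0.2, exact permutation test), 4.27 points without F and 11.7 points without E. The share of Atp5g2 was again high in C (20.66%) and A (17.81%) and lay between 7.46% and 10.06% in the other 4 libraries, a difference of -1.28 points between the groups (p = 0.7), and that of Atp5g3 differed by -6.47 points (p = 0.7, both by exact permutation tests). Leaving out single libraries moved the Atp5g3 difference from -2.03 points without B to -13.5 points without C. Every 50-base stretch of the Atp5g2 transcript also occurs in the genes Gm10175 or Gm10231, so its counts are uncertain.

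Across the 3 complexes, log2 fold changes were higher in members with shorter coding sequences. Spearman's rho between log2 fold change and coding length was -0.72 over the 39 tested members (Pearson's r with log2 length -0.73) and -0.12 (-0.09) over 14554 other tested genes with a coding length, where all points share the same 6 libraries and are not independent. All 8 members with an unadjusted p under 0.05 were among the 21 with a coding length under 350 nt (38.1%, median log2 fold change 0.38). The 14 members of 350 to under 1000 nt had a median of 0.08, with 11 above 0 (Atp5g1 at 0.62 was the highest), and the 4 of at least 1000 nt (Atp5a1, Atp5b, Uqcrc1 and Uqcrc2) a median of -0.15. The exception among short members was Cox6a2, with a coding length of 291 nt and a log2 fold change of -0.06.

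Other genes showed the same order with smaller differences. Of 427 other genes under 350 nt, 60 were higher at an unadjusted p under 0.05 (14.1%) and 7 were lower, with a median log2 fold change of 0.21, while the medians were 0.05 over 3959 genes of 350 to under 1000 nt and -0.03 over 10168 genes of at least 1000 nt. The length classes were chosen after the values were seen. In the fit corrected for transcript length and GC content, 4 of the 8 members (Uqcrq, Cox7b, Atp5j2 and Atp5e) had an unadjusted p under 0.05. The log2 fold changes of the other 4 were then 0.41 for Cox6c, 0.29 for Cox8b, 0.29 for Atp5l and -0.01 for Atp5k, and Atp5e stood at 0.51.

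**Figure D4:**
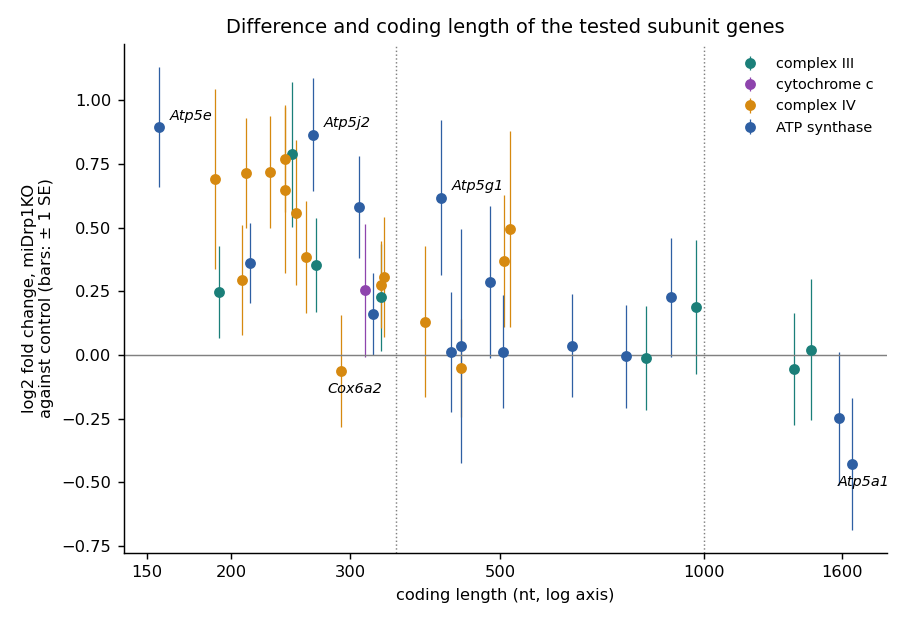
Log2 fold change (miDrp1KO against control, bars of 1 SE) of the 39 tested subunit genes against coding length in nt on a log axis, coloured by complex, with dotted lines at 350 and 1000 nt. Values run from 0.89 for Atp5e at 156 nt to -0.43 for Atp5a1 at 1659 nt, with Cox6a2 low and Atp5g1 high for their lengths.

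Subunits of these complexes encoded by mitochondrial DNA (CYTB, COX1, COX2, COX3, ATP6 and ATP8) were listed at 0 counts in all 6 libraries, so the nuclear and mitochondrial parts of the complexes could not be compared. Complex I, which feeds electrons to complex III, had a median log2 fold change of 0.33 over 36 tested nuclear subunits, of which 9 were higher and 0 lower at an unadjusted p under 0.05. The 4 subunits of complex II had a median of 0.01, with 0 higher and 1 lower. Assembly factors had a median of -0.03 for complex III (6 tested, range -0.31 to 0.55, 0 higher, 0 lower), 0.02 for complex IV (23 tested, range -0.42 to 0.62, 2 higher, 2 lower) and 0.25 for the ATP synthase (5 tested, 1 higher, 0 lower). The lowest adjusted p in these 5 lists was 0.362 by edgeR. Of all genes tested, 4.68% were higher and 6.22% were lower at an unadjusted p under 0.05. The share higher was 25% in complex I, 8.7% among complex IV assembly factors and 20% among those of the ATP synthase. Whether these lists differed from all genes was not tested.

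Summed over their tested members, complex III measured 2400, 1950 and 2070 CPM in control and 2170, 2330 and 2630 CPM in miDrp1KO libraries. Complex IV measured 3050, 2410 and 2600 CPM and 2750, 3400 and 4430 CPM, and the ATP synthase 6290, 4400 and 5230 CPM and 4230, 4650 and 5940 CPM. The groups overlapped in all 3 sums, and library F was the highest of the miDrp1KO libraries in each. All 9 slow fibre markers had a log2 fold change above 0 (median 1.45) with 0 at an unadjusted p under 0.05, and fast fibre markers had 9 of 10 below 0 (median -0.59) with 3 at an unadjusted p under 0.05. At this level, 4.68% of all genes tested were higher and 6.22% were lower. Of markers of other cells, adipose genes were below 0 in 7 of 7 (3 at an unadjusted p under 0.05, sums of 428 to 691 CPM in control and 284 to 408 CPM in miDrp1KO libraries) and macrophage genes above 0 in 5 of 7 (3 at an unadjusted p under 0.05, sums of 92.6 to 167 and 134 to 155 CPM). Fibroblast genes were above 0 in 6 of 6 (median 0.27, sums of 1220 to 1710 and 1350 to 2290 CPM) and peripheral nerve genes in 5 of 5 (median 0.44, sums of 35.6 to 49.9 and 39.6 to 70.8 CPM), while endothelial genes were below 0 in 4 of 5 (median -0.28) and smooth muscle and pericyte genes above 0 in 4 of 6 (median 0.07), with 0 at an unadjusted p under 0.05 in these 4 lists. The brown fat markers, another tissue that uses Cox8b and Cox7a1, summed to 1.02 to 1.33 CPM in control and 0.778 to 2.64 CPM in miDrp1KO libraries over the 2 tested of 3. Sums over 4 blood genes were 47.2 to 272 and 73.1 to 231 CPM, and none of the markers present in the tables was at 0 in every library. The part of fibre types and other cells in the members' values was not tested.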

How the data were processed

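The authors deposited raw counts per gene, 1 table per library, with Entrez identifiers and symbols; per the labels these are whole-number counts with no normalization. Total RNA libraries (TruSeq Stranded Total RNA, RiboZero Gold) went through FastQC before alignment to GRCm38, with counting in Rsubread, and the submitters' processing notes also name DESeq2 1.30.0. Strand setting and the handling of reads with several matches are not given in the sources used here, so genes with near-identical copies or overlapping genes are uncertain.

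The test was the robust quasi-likelihood test of edgeR 4.0.16 under R 4.3.3, after TMM scaling and filterByExpr, with p adjusted by Benjamini-Hochberg across 16483 genes (threshold 0.05). Alternatives were DESeq2 1.42.0, limma voom (limma 3.58.1), other normalizations and filters, covariates (ribosomal RNA share, slow fibre score), a length and GC correction and leaving out each library. The scripts were tested on simulated data. Members' isoform ratios were compared by two-sided exact permutation tests. Members and lists were chosen with earlier results of these data known. Every member is named; values in every library are given for the 3 lowest p-values per complex, both of each isoform pair, the most abundant member of each complex and Cycs, and other such values were added after they were seen. Positions and promoters are from RefSeq GRCm38.p6, transcript and coding lengths from GENCODE M21. Depth was 13989588 to 62042255 counts, so that 3 counts are worth 0.0484 to 0.214 CPM.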

Additional observations from a re-analysis of the deposited data

How the results depend on the processing

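No paired analysis was possible because, by the labels, no replicate letter occurs in both groups. Depth limits Cox4i2, Cox6b2, Cox7b2 and Cox8c, and 3 libraries per group limit all p-values. Uqcr11 was listed at 0 in every library, and the cause was not tested. Of 623 values of single members under 16 alternatives, 557 kept their direction and side of the adjusted threshold, and the causes of the other changes were not tested. Genes called, 2 in the report, numbered 55 with DESeq2 (adjusted p given for 7852 genes), 1 with voom, 8 without a filter, 1 with ribosomal RNA share as covariate, 4 with the slow fibre score, and 1 to 7 leaving out each library. DESeq2 called 1 member of complex IV and 1 of the ATP synthase. Upper quartile scaling moved the median of all genes to 0.106 and no filter to 0.113.

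Members of complex III higher at an unadjusted p under 0.05 (1 in the report) numbered 2 with DESeq2, upper quartile scaling, at least 10 counts in every library, or ribosomal RNA and Lars2 left out, 0 with either covariate, and 0 to 2 leaving out each library. Complex IV (3) had 5 with DESeq2 and with the slow fibre score, 1 with the length and GC correction, and 3 to 8 leaving out each library. The ATP synthase (4) had 2 with the ribosomal RNA covariate and with the length and GC correction, and 2 to 4 leaving out each library, and 1 lower (Atp5a1) with the slow fibre score and 0 to 1 leaving out each library. Of all genes tested, 4.73% were higher at this level with DESeq2, 7.23% with upper quartile scaling and 5.33% with at least 10 counts in every library. The share was 5.8% with ribosomal RNA and Lars2 left out, 3.76% with the ribosomal RNA covariate, 4.23% with the slow fibre score and 3.79% with the length and GC correction. Leaving out each library gave 3.21% to 8.55%.

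Values that changed sign, all in log2, were close to 0 in most cases. With the length and GC correction they were the medians of complex III (-0.079) and the ATP synthase (-0.013), Cox5b -0.057, Atp5d -0.16, Uqcr10 -0.103, Uqcrb -0.098, Atp5g2 -0.249, Atp5j -0.013, Atp5o -0.136, Cox8a -0.022, Atp5g3 -0.197, Atp5k -0.006 and Uqcrc1 -0.06. With the ribosomal RNA share they were Atp5d -0.22, Atp5g2 -0.313, Atp5o -0.05, Atp5g3 -0.016, Atp5f1 0.017 and Uqcrc1 -0.112. With the slow fibre score they were Cox5b -0.242, Atp5d -0.03, Atp5h -0.062, Cyc1 -0.074, Atp5o -0.081, Atp5g3 -0.226 and Uqcrc1 -0.222. Upper quartile scaling gave Uqcrfs1 0.083, Atp5f1 0.085, Uqcrc2 0.035, Cox6a2 0.027 and Cox5a 0.041. Uqcrfs1 and Atp5f1 were 0.034 and 0.038 with at least 10 counts in every library, 0.032 and 0.036 with ribosomal RNA left out, and 0.001 and 0.006 with RLE scaling. Atp5f1 was 0.005 with DESeq2 and 0.004 without a filter, and Atp5d -0.029 with voom.

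Leaving out each library in turn gave ranges across 0 for Atp5d (-0.252 to 0.202), Atp5f1 (-0.119 to 0.119), Atp5g2 (-0.245 to 0.523), Atp5g3 (-0.183 to 0.251), Atp5o (-0.134 to 0.17), Cox5a (-0.189 to 0.096), Cox5b (-0.126 to 0.421), Cox6a2 (-0.171 to 0.106), Cyc1 (-0.108 to 0.415), Uqcrc1 (-0.284 to 0.227), Uqcrc2 (-0.202 to 0.148), Uqcrfs1 (-0.166 to 0.149), the Cox7a1/Cox7a2 ratio (-0.511 to 0.516) and the share of Atp5g2 (-4.468 to 2.681 points). Without crossing 0, single libraries also moved Uqcr10 (0.13 to 0.381), Uqcrb (0.13 to 0.345), Atp5h (0.047 to 0.55), Atp5c1 (0.015 to 0.386), Cox7c (0.494 to 1.044), Cox7a2 (0.376 to 0.899), Cox7a2l (0.162 to 0.364), Cox8a (0.047 to 0.496), Cox6a1 (0.093 to 0.537), Cox6b1 (0.202 to 0.577), Cox4i2 (0.258 to 0.737), Cox7a1 (0.278 to 0.945) and Atp5g1 (0.22 to 0.87) by over 1.5 times from lowest to highest. The same held for Atp5e (0.592 to 1.099), Atp5j2 (0.645 to 1.057), Cox8b (0.547 to 0.888), Atp5l (0.457 to 0.756), Atp5j (0.134 to 0.215) and Uqcrq (0.412 to 1.062). The slow fibre score gave 0.262 for Cox7a1 and the ribosomal RNA share 0.286 for Atp5g1. Of the 8 members with a low unadjusted p, Cox7b, Atp5j2 and Atp5e kept an unadjusted p under 0.05 in 16 of 16 alternatives, Cox8b and Cox6c in 15, Atp5l in 13, Uqcrq in 11 and Atp5k in 9.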
